A study of Mus musculus with 4 samples.

Results

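The 35 genes described here encode the matrix of cartilage and the signals and markers that set apart the zones of a growth plate. They form a list set by gene name, out of the 32285 genes that all 4 libraries share: 7 collagens, 14 proteoglycans, linkers and secreted cartilage proteins, 2 genes of the superficial and articular zone, 4 transcription factors, 5 genes of the hedgehog and PTHrP loop, and 3 hypertrophic genes. Single cells were profiled 7 days after injury of the physis, the growth plate of a long bone, in mice of genotype TrkAF592A, an allele that makes the nerve growth factor receptor TrkA sensitive to the compound 1NMPP1. All groups carry this allele, so no group with an unaltered receptor is part of the comparison. Each group was 1 library: growth plate vehicle, growth plate 1NMPP1, DRG vehicle and DRG 1NMPP1, where DRG stands for the lumbar dorsal root ganglia, which hold the cell bodies of sensory neurons. The 1NMPP1 groups received 2 injections of 17 µg/g from a 5 mM solution, 48 h and 2 h before surgery, and afterwards drank water with 40 µM of the compound, and vehicle animals received DMSO. The growth plate samples held the end of the femur with tissue around the injury, and the labels give no number of animals, no age and no sex.

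Cartilage is built on a network of type II collagen that is decorated by types IX and XI and filled with aggrecan. In a growth plate, resting cells form columns of dividing cells that swell into hypertrophic cells, which make type X collagen before bone replaces the cartilage. Cells that begin to swell secrete Indian hedgehog, which raises PTHrP near the joint end, and PTHrP acting on its receptor holds back further swelling. Near a joint surface, cells secrete lubricin instead.

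After cells with under 200 genes or over 20% mitochondrial UMIs and likely doublets were left out, the growth plate libraries held 8661 vehicle and 10537 1NMPP1 cells, with a median of 6502 and 7042 UMIs (unique molecular identifiers, each counting 1 captured RNA molecule). The DRG libraries held 2840 and 2150 cells, with a median of 10391 and 7023.5 UMIs. Classes of blood cells made up 96.7% and 98.3% of the growth plate cells. Every library held cells called male and cells called female by their X- and Y-linked transcripts, and the mix differed: 49.7% of growth plate vehicle cells were called male against 24.8% of growth plate 1NMPP1 cells, and 45.5% against 17.4% in the DRG. The growth plate libraries shared 40 cell barcodes, of which 1 lay in a cartilage cluster. With 1 library per group, no difference between vehicle and 1NMPP1 has a replicate check, and all intervals below are 95% intervals that cover counting error only.

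Cells of cartilage formed 6 growth plate clusters, called A to F, in a clustering from which the 35 genes were left out. Each had a UMI for at least 10 of 12 chondrocyte markers outside the list in at least 10% of its cells. Clusters B, C and E met the rule for a chondrocyte-like name. In A and F the fibroblast markers scored higher than the chondrocyte markers, and D had no chondrocyte marker among its 10 leading genes, so these carry a letter only. Clusters A to F held 26, 28, 21, 21, 12 and 5 vehicle cells, and 17, 8, 10, 7, 7 and 7 cells of the 1NMPP1 library.

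Cartilage cells were scarcer in the 1NMPP1 library. Chondrocyte-like cells were 61 of 8661 vehicle cells, or 0.704% (exact interval 0.539% to 0.904%), and 25 of 10537 1NMPP1 cells, or 0.237% (0.154% to 0.35%). The log2 ratio of these shares was -1.57 (-2.30 to -0.88). Over all 6 clusters the shares were 1.3% and 0.531%, a log2 ratio of -1.30 (-1.78 to -0.82). A lower share was not particular to cartilage. The log2 ratio was -2.28 (-4.75 to -0.39) for fibroblast-like and -3.87 (-9.29 to -1.11) for marrow stromal-like cells. It was 0.08 (-1.51 to 1.74) for endothelial-like cells and 1.59 (-0.33 to 4.07) for a cluster with Bglap among its leading genes. Among cells called male, chondrocyte-like cells were 44 of 4306 and 4 of 2613, a log2 ratio of -2.74 (-4.68 to -1.28). Among cells called female they were 4 of 1383 and 14 of 4101, a log2 ratio of 0.24 (-1.43 to 2.30). Over all 6 clusters the ratio was -1.62 among male-called and -0.93 (-1.84 to 0.01) among female-called cells. The difference between these ratios, and the part of the sex mix in the shares, was not tested.

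The 35 genes together took 13.9% of all UMIs of the vehicle cells in the 6 cartilage clusters and 12.4% of those of the 1NMPP1 cells. In fibroblast-like cells of the same libraries they took 4.42% and 4.06%, and in blood cells 0.0287% and 0.0268%. Levels below are UMIs of a gene in a cluster, on the counts-per-million scale (CPM) of all its UMIs, which compares 1 gene between cells but not 1 gene with another. Of the 35 genes, 12 differed by at least 10-fold between their highest and lowest cartilage cluster, 13 by 3 to 10-fold and 10 by under 3-fold. The median spread was 4.45-fold, with clusters at 0 set to 3 UMIs. For 23 genes the same cluster was highest in both libraries. Neither the spreads nor the matching clusters were counted over all features, so these counts describe the list only.

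**Figure D1:**
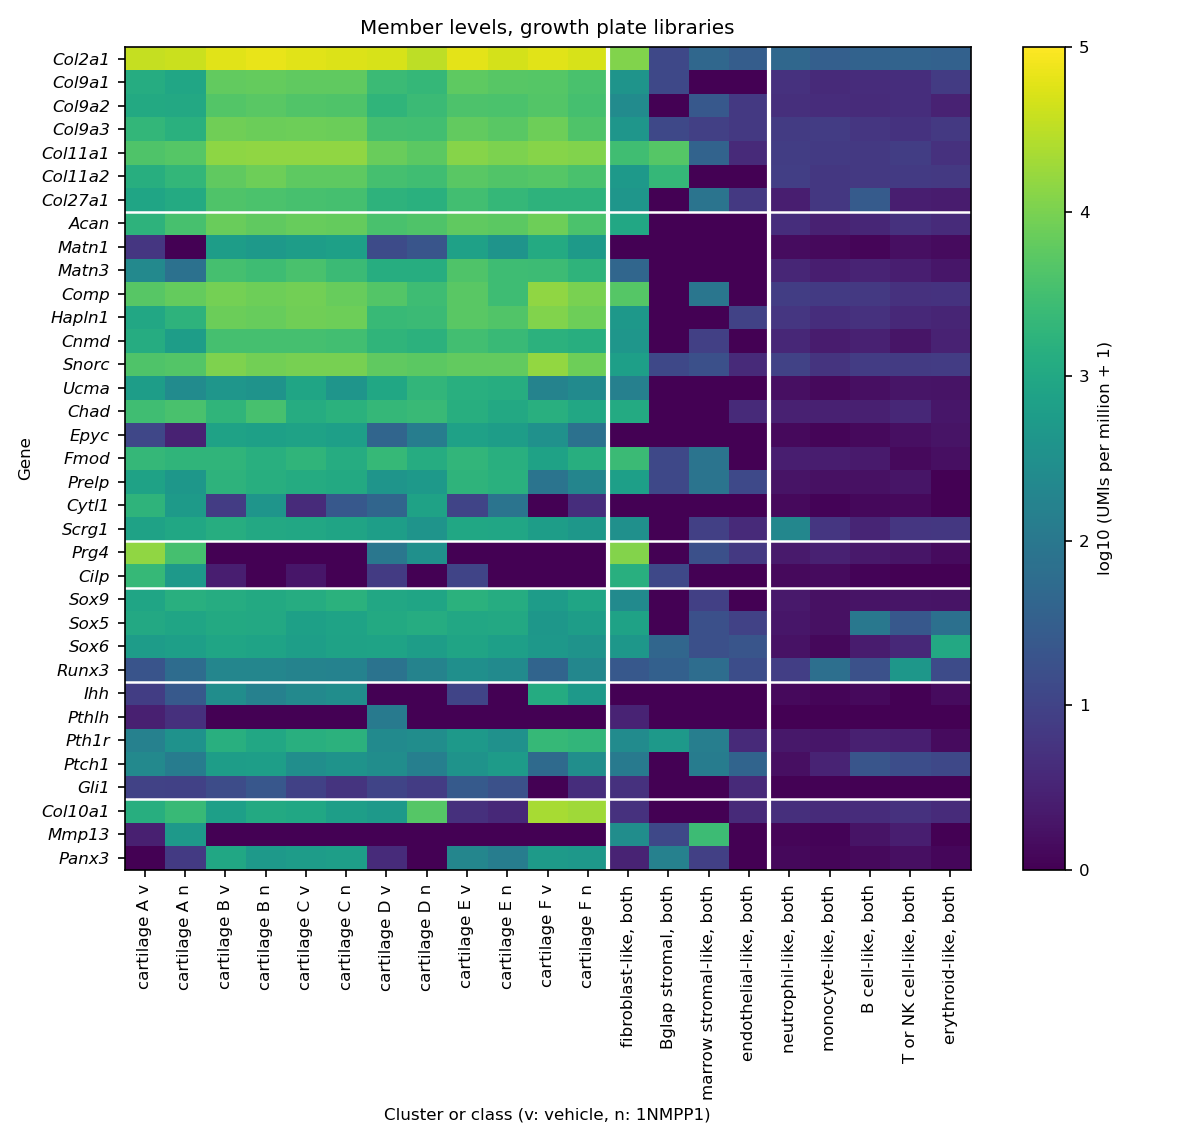
Level of each of the 35 genes (vertical axis, grouped by role between the white lines) in the cartilage clusters by library and in stromal and blood clusters (Bglap stromal has Bglap among its leading genes) with both libraries summed (horizontal axis), as log10 of CPM plus 1. Col2a1 is high in all 6 cartilage clusters, while Prg4 and Cilp are high in cluster A and in fibroblast-like cells, and Col10a1 is highest in cluster F.

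The collagens were high in every cluster, with spreads between 1.67-fold and 5.83-fold. Col2a1, the main fibrillar collagen of cartilage, ranged from 37459 CPM in A to 62379 CPM in B. In the vehicle library it was at 36125 CPM in A, 59349 in B, 59035 in C, 49615 in D, 62487 in E and 60921 in F. In the 1NMPP1 library it was at 39003, 69021, 55026, 31766, 46825 and 50831 CPM in the same order. Cluster A was thus lowest in the vehicle library and D in the 1NMPP1 library. The other 6 collagens were lowest in A with the libraries summed. Col9a1, Col9a2 and Col9a3, the chains of collagen IX that coat the fibrils, ranged 5.83-fold, 4.43-fold and 4.45-fold. Col11a1 and Col11a2, chains of the collagen XI that lies inside the fibrils, ranged 3.26-fold and 3.92-fold, and Col27a1, another fibrillar collagen, ranged 4.09-fold.

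Among the proteoglycans and secreted proteins, Matn1 had the widest spread over the clusters, at 282-fold, followed by Cytl1 at 212-fold, with its lowest cluster set to 3 UMIs, and Epyc at 114-fold. Matn1 encodes matrilin 1, which links matrix fibres. It was at 5.226 CPM in the vehicle cells of A and 12.85 in those of D, against 616.5 in B, 612.6 in C, 729 in E and 1138 in F. In the 1NMPP1 library Matn1 had 0 UMIs in A and was at 20.16 CPM in D, against 505.8, 687.7, 377.6 and 521.8 in B, C, E and F. The groups did not overlap: A and D were low in both libraries and the other 4 clusters high. Epyc, which encodes the small leucine-rich proteoglycan epiphycan, was at 10.45 CPM in the vehicle cells of A, 41.76 in D and between 337 in F and 774.9 in B elsewhere. In the 1NMPP1 library Epyc was at 2.016 CPM in A, but its 71.63 CPM in F lay below the 127.7 in D, from 21 and 19 UMIs.

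Matn3, encoding matrilin 3, was also lowest in A, at 226.5 and 72.56 CPM in vehicle and 1NMPP1 cells. It was highest in E, at 4140 and 2849 CPM. Prelp, a leucine-rich repeat protein that binds collagen, was highest in E too, at 1758 and 1461 CPM, and lowest in F, at 83.16 and 191. Ucma, a protein of the upper zone of growth cartilage, was at 1415 and 1292 CPM in E, and in D at 934.7 and 1969. Its lowest values were in F, at 170.7 and 249 CPM. E therefore held the highest Matn3 and Prelp in both libraries, while the place of the highest Ucma changed between E and D.

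Other secreted components followed other orders. Hapln1, the link protein that ties aggrecan to hyaluronan, was highest in F, at 11047 and 7845 CPM, and lowest in A, at 987.7 and 1739. Comp, a cartilage oligomeric protein that bridges collagen fibrils, was highest in F as well, at 15026 and 9690 CPM. Chad, which encodes the cell-binding protein chondroadherin, was instead highest in A, at 2890 and 3705 CPM. Acan, the aggrecan core protein, ranged 2.74-fold, Cnmd 3.54-fold, Snorc, a transmembrane proteoglycan of cartilage, 2.56-fold, Scrg1 2.38-fold and Fmod, which encodes the fibril-binding fibromodulin, 1.83-fold. Cytl1, a secreted cytokine-like protein, had 81.6% of its UMIs in A, and 1 vehicle cell held 60% of those of the vehicle cells there.

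Among the 6 cartilage clusters, the superficial zone genes were almost confined to cluster A. They were not particular to it, since vehicle fibroblast-like cells, described below, held both genes at somewhat lower levels than vehicle cells of A. Prg4 encodes lubricin, the lubricant of joint surfaces, and 99.2% of its cartilage UMIs lay in A. In A it was at 14854 CPM in the vehicle library and 3422 in the 1NMPP1 library, with a UMI in 19 of 26 and 13 of 17 cells. In D it was at 96.36 and 329.2 CPM, and in B, C, E and F no UMI was found in either library. Levels within A were uneven: the median vehicle cell was at 1136 CPM and the highest at 103538. Cilp, which encodes a protein of the middle layer of articular cartilage, had 99.4% of its cartilage UMIs in A, at 2272 and 516 CPM. Blood cells of the vehicle library, which should lack both genes, had a Prg4 UMI in 1.53% and a Cilp UMI in 0.514%. The median depth of the vehicle cells was 20616 UMIs in A against 6502 over all kept cells. A also held the fibroblast markers Col1a1 at 3019 and 7441 CPM, which the chondrocyte-like clusters held at 35.98 and 6.248.

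The hedgehog ligand and the PTHrP gene were highest in different clusters. Ihh, encoding Indian hedgehog, was highest in F, at 1173 CPM in vehicle and 487.7 in 1NMPP1 cells, with a UMI in 4 of 5 and 4 of 7 cells. It followed in B at 284.7 and 155.1 and in C at 220.9 and 276.3. In D it had 0 UMIs in both libraries. Pthlh, encoding PTHrP, had 39 UMIs over all cartilage cells, and 36 of them came from 3 vehicle cells of D. Its place in D was not repeated in the 1NMPP1 library, where D had 0 Pthlh UMIs. Cluster A held both genes, with 1 and 2 UMIs of Pthlh and 4 and 12 of Ihh in vehicle and 1NMPP1 cells. No cell with at least 5000 UMIs held UMIs of both Ihh and Pthlh, among 94 vehicle and 51 1NMPP1 cells, but only 3 and 2 of these cells held a Pthlh UMI. Pth1r, the receptor of PTHrP, was highest in F, at 2267 and 1961 CPM, and at 1445 and 978.4 in B and 1432 and 1610 in C. In A it was at 156.8 and 352.7 CPM, in D at 240.9 and 282.2 and in E at 475.6 and 344.8. The same 3 clusters, B, C and F, thus held the highest Ihh and the highest Pth1r in both libraries.

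Ptch1, the hedgehog receptor and itself a target of the pathway, followed the ligand only in part. In vehicle cells it was at 604.7 CPM in B, 370.3 in E, 295.6 in C, 276.2 in D and 226.5 in A. In F, where Ihh was highest, it was at 52.52 CPM, from 12 UMIs in 5 cells. In 1NMPP1 cells Ptch1 was at 620.3 in B, 555.5 in E, 371 in C and 293.3 in F. It was lowest there in A at 122.9 and D at 141.1, which held little or no Ihh, but E had 0 Ihh UMIs. Gli1, a transcription factor that hedgehog signalling turns on, had 58 UMIs in all cartilage cells, too few to order the clusters.

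Hypertrophic genes did not share 1 cluster. Col10a1, the collagen of hypertrophic cells, was highest in F at 21757 and 19571 CPM and lowest in E at 3.898 and 2.736, from 2 and 1 UMIs. It was present in 4 of 5 vehicle and 4 of 7 1NMPP1 cells of F, against 2.44% and 3.55% of blood cells. Cells outside F held it too, and in the 1NMPP1 cells of D, 1 cell held 65.6% of the Col10a1 UMIs. Cluster F also held Ibsp, a bone matrix gene, at 7642 and 20990 CPM and Col1a1 at 1265 and 13783. Panx3, a channel protein of prehypertrophic and hypertrophic cells, was highest in B at 933.2 CPM in vehicle cells and in C at 630.2 in 1NMPP1 cells. In A and D its highest value was 6.047 CPM, from 3 UMIs. Of the cells with at least 5000 UMIs and an Ihh UMI, 20 of 22 vehicle and 15 of 15 1NMPP1 cells also held Panx3, and 14 and 13 held Col10a1. Among all cartilage cells of that depth, 48 of 94 vehicle and 30 of 51 1NMPP1 cells held Panx3, and 22 and 23 held Col10a1. The part of depth in this overlap was not tested. Mmp13, a collagenase of terminal hypertrophic cells, had 252 UMIs in cartilage cells, 251 of them from 1 1NMPP1 cell of A.

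**Figure D2:**
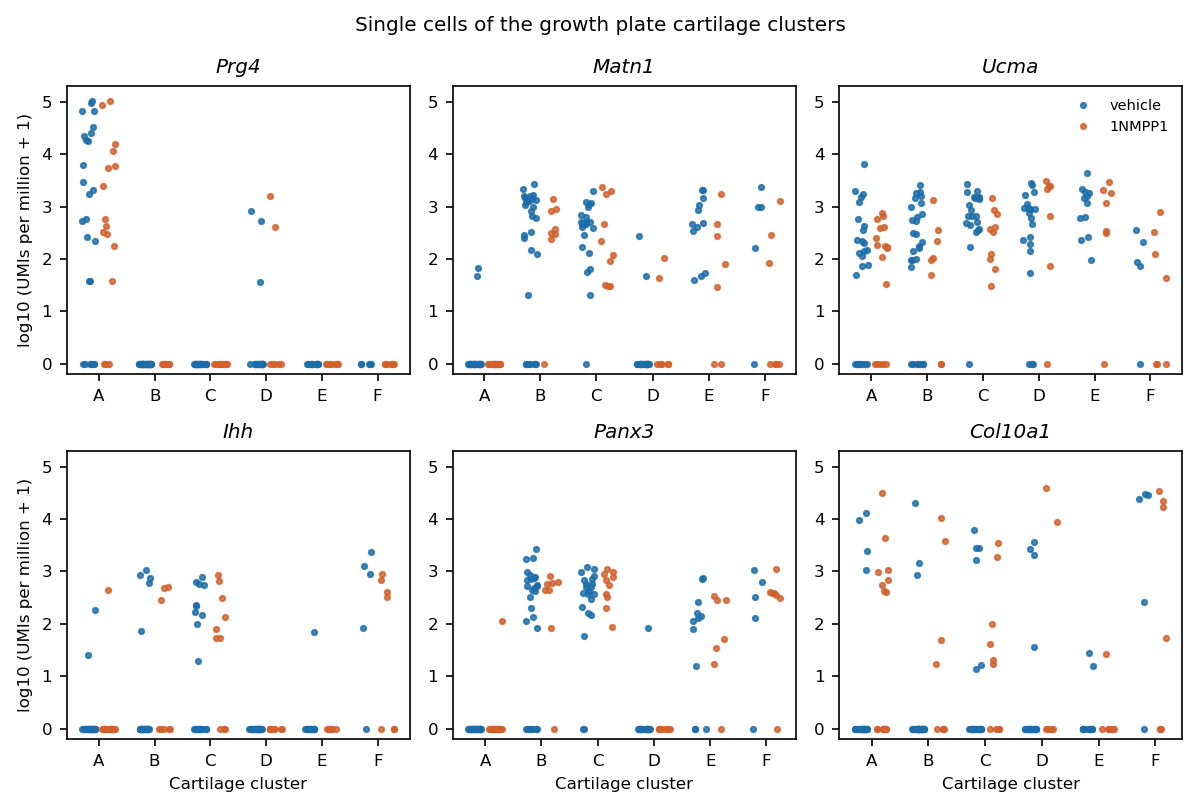
Level of 6 zone genes in each cell of the 6 growth plate cartilage clusters (horizontal axis), as log10 of CPM plus 1 (vertical axis), with vehicle cells in blue and 1NMPP1 cells in orange. Prg4 is found in A and a few cells of D, Matn1 and Panx3 are rare in A and D, and Ihh and Col10a1 reach their highest shares of cells in F.

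The transcription factors varied little between clusters apart from Runx3. Sox9, the master regulator of cartilage, ranged 1.92-fold, and its partners Sox5 and Sox6 ranged 2.16-fold and 2.1-fold. Each of the 3 was lowest in F when both libraries were summed. Runx3, which takes part in chondrocyte maturation, ranged 7.49-fold. It was highest in E, at 304.1 and 246.3 CPM, and lowest in A when the libraries were summed, at 19.16 and 58.45.

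The 250 bases before the start site are given for 5 genes that set the clusters apart, Col10a1 and Ihh as the hypertrophic collagen and the ligand, Matn1 and Epyc as genes low in A, and Cilp as a gene of A. They are RefSeq sequences of mouse assembly GRCm38.p6 and read 5′ to 3′ on the strand of the gene. Capitals mark matches on either strand to a SOX motif (ACAAAG or ACAATG), a RUNX motif (ACCACA) or a TATA box (TATAAA). The Col10a1 window spans chr10:34389731-34389980 on the + strand, Ihh chr1:74951673-74951922 on the - strand, Matn1 chr4:130944135-130944384 on the + strand, Epyc chr10:97643818-97644067 on the + strand and Cilp chr9:65264930-65265179 on the + strand.
Col10a1: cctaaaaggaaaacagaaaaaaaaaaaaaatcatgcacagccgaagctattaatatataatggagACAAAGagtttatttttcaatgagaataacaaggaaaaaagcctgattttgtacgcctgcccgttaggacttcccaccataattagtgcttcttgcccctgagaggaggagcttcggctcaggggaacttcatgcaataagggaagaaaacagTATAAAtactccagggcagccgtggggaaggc
Ihh: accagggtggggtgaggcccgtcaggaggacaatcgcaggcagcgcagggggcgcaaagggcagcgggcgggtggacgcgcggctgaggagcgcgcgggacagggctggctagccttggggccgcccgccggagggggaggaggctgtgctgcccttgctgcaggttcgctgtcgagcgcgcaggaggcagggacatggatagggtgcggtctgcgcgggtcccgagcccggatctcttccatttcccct
Matn1: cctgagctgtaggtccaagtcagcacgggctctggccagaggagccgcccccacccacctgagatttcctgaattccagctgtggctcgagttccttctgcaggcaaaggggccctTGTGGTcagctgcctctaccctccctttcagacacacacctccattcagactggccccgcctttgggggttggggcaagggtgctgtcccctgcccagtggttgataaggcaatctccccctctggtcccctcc
Epyc: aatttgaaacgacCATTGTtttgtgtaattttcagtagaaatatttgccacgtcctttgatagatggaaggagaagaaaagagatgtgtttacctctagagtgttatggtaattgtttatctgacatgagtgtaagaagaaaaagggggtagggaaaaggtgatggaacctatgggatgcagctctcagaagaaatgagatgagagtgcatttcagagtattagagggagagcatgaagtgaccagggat
Cilp: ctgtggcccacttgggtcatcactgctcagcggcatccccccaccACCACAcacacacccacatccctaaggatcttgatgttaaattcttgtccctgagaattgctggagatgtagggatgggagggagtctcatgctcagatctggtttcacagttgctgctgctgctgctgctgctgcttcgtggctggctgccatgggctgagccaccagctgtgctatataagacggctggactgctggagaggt
Col10a1 held a SOX match from 185 to 180 bases before the start and a TATA box from 32 to 27 bases before it. Epyc held a SOX match on the other strand, 237 to 232 bases before the start. Matn1 held a RUNX match on the other strand, 134 to 129 bases before the start, and Cilp held 1 on the same strand, 205 to 200 bases before it. The Ihh window held none of these. Promoters of 26 of the 35 genes were matched by symbol in the table of 32851 promoters. A SOX match was found in 5 of the 26, against 25.2% of all promoters, a RUNX match in 7, against 14%, and a TATA box in 5, against 12.4%. A GLI motif (GACCACCCA), the site of hedgehog-dependent factors, was found in 0 of the 26 and in 0.225% of all promoters. These shares cover the same 250 bases before the start, and a match is a description of the letters, not a binding site. A listed gene was counted with a match in any of its promoters, while the percentages count single promoters, so the units differ.

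Within chondrocyte-like cells most of the genes differed by less than 2-fold between the libraries. Of the 35 genes, 31 had at least 20 UMIs there, and Prg4, Cilp, Pthlh and Mmp13 did not. The median log2 ratio of 1NMPP1 over vehicle was -0.13, against 0.05 over the 9586 features with as many UMIs. Of the 31 genes, 25 were below 0 and 6 above, against 4352 and 5234 of the 9586 features. The sign of the median was not stable: it was -0.27 in male-called cells, 0.13 in female-called cells and 0.02 with no cells removed as doublets. The counting interval lay below 0 for 19, above 0 for 3 and spanned 0 for 9. Over all features it lay below 0 for 866, above 0 for 1120 and spanned 0 for 7600. The interval narrows as UMIs rise, so genes with many UMIs clear 0 at smaller ratios. A difference of at least 2-fold was found for 1 gene that was higher, against 5.1% of all features, and for 0 that were lower, against 3.42%. Counted by sex call, 5 genes differed by at least 2-fold among male cells and 5 among female cells. These counts rest on 44 vehicle and 4 1NMPP1 male-called cells and on 4 and 14 female-called cells. The share of all features past 2-fold was not counted by sex call.

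Col2a1 was at 59974 and 55646 CPM in vehicle and 1NMPP1 chondrocyte-like cells, a log2 ratio of -0.11 (-0.12 to -0.09). The 7 collagens had a median of -0.04 and ranged from -0.22 to 0.02. The lowest ratios were those of Fmod, from 1883 to 1324 CPM (-0.51, -0.59 to -0.43), Matn3, from 3702 to 2709 (-0.45, -0.51 to -0.39), Ucma, from 882.3 to 651.3 (-0.44, -0.56 to -0.32), and Comp, from 7930 to 5964 (-0.41, -0.45 to -0.37). All 4 are secreted matrix proteins. The 4 transcription factors had a median of 0.02, and each interval spanned 0. Sox9 was at 1318 and 1368 CPM.

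Signalling genes also had small ratios in the pooled cells. Ihh was at 187.1 and 171.8 CPM, a log2 ratio of -0.12 (-0.37 to 0.12), and Pth1r at 1200 and 1115, a ratio of -0.11 (-0.20 to -0.01). Ptch1 was at 402 and 476.4 CPM, 0.25 (0.09 to 0.40). Gli1 had 29 and 15 UMIs and an interval from -1.25 to 0.70. Panx3 was at 581.5 and 457.6 CPM, -0.34 (-0.49 to -0.20), and Col10a1 at 634.7 and 550.6, -0.20 (-0.34 to -0.07). Ptch1 was the only hedgehog or PTHrP gene whose interval lay above 0, and its direction turned with the sex call. Its ratio was -0.31 in male-called cells (404.6 and 325.5 CPM) and 0.57 in female-called cells (409.1 and 608.8 CPM), and it was 0.00 with each cell weighed alike and -0.01 with each library clustered on its own.

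Cytl1 and Chad show how few cells set some values. Cytl1 had 12 UMIs in vehicle and 152 in 1NMPP1 chondrocyte-like cells, a log2 ratio of 4.31 (3.52 to 5.35), but 1 cell held 69.7% of the 1NMPP1 UMIs. Without the cell of each library with the most UMIs of the gene the interval was 2.01 to 4.28, and over all 6 cartilage clusters the ratio was -0.47 (-0.63 to -0.32). Chad was at 1444 and 1795 CPM, a ratio of 0.31 (0.23 to 0.39), with 27.2% of its 1NMPP1 UMIs in 1 cell, and at -0.01 without the top cells. S100a8, a marker of neutrophils, also differed, at 758 and 1888 CPM in the chondrocyte-like cells, and its part in these ratios was not tested.

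Over all 6 cartilage clusters the 35 genes had a median log2 ratio of -0.22, against 0.00 over 11103 features. There, 1 gene was at least 2-fold higher in the 1NMPP1 library, against 3.15% of all features, and 3 were at least 2-fold lower, against 3.06%. The gene that was higher was Mmp13, at 7.92 from the 251 UMIs of 1 cell. The 3 that were lower were Cilp at -1.83 (-2.03 to -1.64), Prg4 at -1.76 (-1.84 to -1.69) and Pthlh at -3.38 (-6.78 to -1.73), the last from 37 and 2 UMIs. Within A itself the ratio was -2.12 for Prg4 and -2.14 for Cilp. The Prg4 ratios depended on how cells were weighed: as a mean over cells, Prg4 was at 17907 CPM in vehicle and 13583 in 1NMPP1 cells of A, a ratio of -0.40, and the ratio over all 6 clusters was 0.01. Weighed in this way, chosen after the data were seen, Cilp was at -2.06 in A and Pthlh at -3.84 over all 6 clusters. Col10a1 was at 2262 and 3756 CPM, a ratio of 0.73 (0.69 to 0.78), and cluster F, where it was highest, gave 5 of 113 vehicle and 7 of 56 1NMPP1 cartilage cells. The clusters made up different parts of the 2 libraries, so these ratios combine level and makeup.

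**Figure D3:**
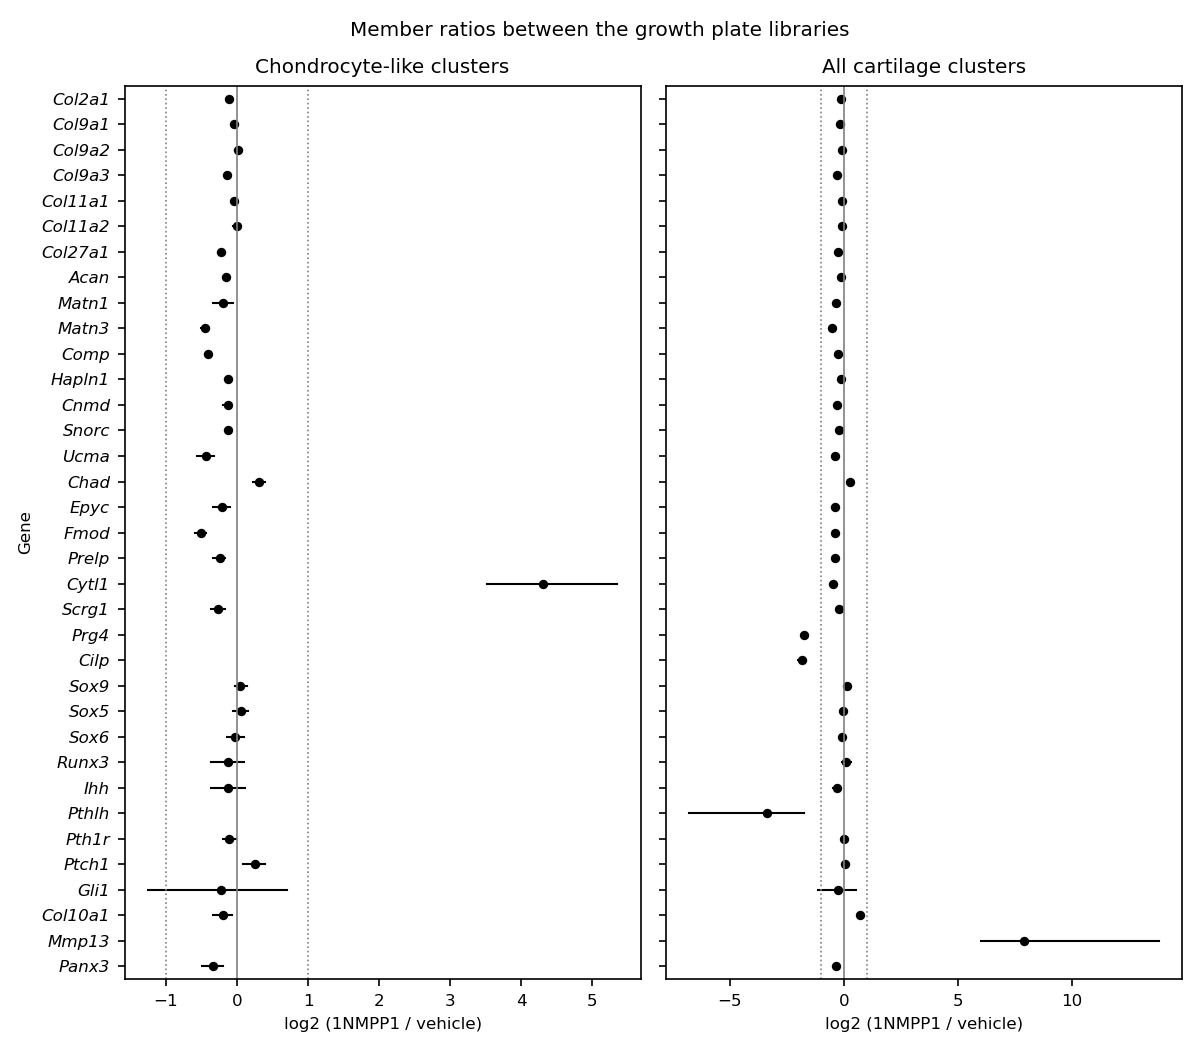
Log2 ratio of CPM, 1NMPP1 over vehicle (horizontal axis), of each gene with at least 20 UMIs (vertical axis), in chondrocyte-like clusters (left) and all 6 cartilage clusters (right), with 95% counting intervals as bars and dotted lines at 2-fold. Most genes lie just below 0 in both panels. Cytl1 stands apart on the left, and Mmp13, Pthlh, Prg4 and Cilp on the right.

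Other genes of the same pathways were read from 5 further lists in chondrocyte-like cells. Of 13 other hedgehog pathway genes, 11 had at least 20 UMIs, 2 were at least 2-fold higher and 0 lower. Over all features of these cells the shares were 5.1% higher and 3.42% lower, against which the counts of each list below stand too. Among them Gli3, a factor of the pathway that can repress its targets, was at -0.09, Smo, the signal transducer, at -0.38, Gli2 at -0.64 and Sufu, an inhibitor, at 1.32 from 24 and 37 UMIs. Of 24 other cartilage matrix and synthesis genes, 22 had enough UMIs and 0 passed 2-fold in either direction. Sparc was at -0.25, Omd at 0.74, and Mgp, an inhibitor of mineralization, at 0.91 (5816 and 10893 CPM). Of 15 other hypertrophic and mineralization genes, 10 had enough UMIs, with 1 higher and 0 lower. Runx2, a driver of hypertrophy, was at 0.01, Mef2c at 0.17, Ibsp at 0.80 and Mmp9 at 1.22, from 22.07 to 51.54 CPM. Mmp9 was also a leading gene of neutrophil-like clusters, and the neutrophil marker S100a8 was at 758 and 1888 CPM in these chondrocyte-like cells. The part of neutrophil RNA in the Mmp9 ratio was not tested. Of 8 other superficial zone genes, 3 had enough UMIs and 1 was lower, Creb5 at -1.40, with Cd44 at 0.90. Of 13 other growth plate signalling genes, 8 had enough UMIs and 1 was lower. That gene was the growth factor Bmp6, at 309.4 and 65.6 CPM (-2.23). Fgfr3, the receptor that slows growth plate proliferation, was at -0.02, Trps1 at -0.21 and Npr2 at 0.55.

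Stroma of the growth plate libraries was sparse: 12 and 3 fibroblast-like cells, 12 and 1 marrow stromal-like cells and 3 and 11 cells of a cluster with Bglap among its leading genes, in vehicle and 1NMPP1. This Bglap cluster scored highest for osteoblast markers, but its 10 leading genes held 3 fibroblast and 2 osteoblast markers, so it carries no cell type name. Its 1NMPP1 cells had a median of 1406 UMIs against 36337 in the vehicle cells. The 35 genes were unevenly spread over these clusters. Prg4 in fibroblast-like cells was at 13583 CPM in the vehicle library, with 63.2% of the UMIs in 1 cell, and had 0 UMIs in the 3 1NMPP1 cells. Cilp was at 1694 CPM there and again had 0 UMIs in the 1NMPP1 cells. Col2a1 was at 9906 and 19459 CPM and Comp at 4570 and 6174 in fibroblast-like cells, while Matn1, Epyc, Ihh and Cytl1 had 0 UMIs in both libraries. Col11a1 was at 3122 and 1681 CPM and Pth1r at 130.7 and 981.9 in fibroblast-like cells. Mmp13 was at 17.26 CPM there in the vehicle library and at 1904 in the 1NMPP1 library, where 1 cell held 93% of its 128 UMIs. The fibroblast-like cluster also had a UMI for 10 of the 12 chondrocyte markers in at least 10% of its cells.

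Cells of the Bglap cluster held the collagen XI genes and the PTHrP receptor. Col11a1 was at 4617 and 5433 CPM, with a UMI in 3 of 3 and 11 of 11 cells, and Col11a2 at 1860 and 3881. Pth1r was at 527.7 and 352.8 CPM, from 40 and 5 UMIs. Col2a1 had 1 and 0 UMIs in the same cells, so the collagen XI genes were present there without type II collagen. Marrow stromal-like cells also held Mmp13, at 2770 CPM in 11 of 12 vehicle cells and at 2035 in the 1 1NMPP1 cell. They held more Mmp13 than any cartilage cluster. Over the stroma as a whole the 27 genes with at least 20 UMIs had a median log2 ratio of 0.21 against -0.18 over all features. It was -1.27 when each cell was weighed alike, and 3 clusters with different shares in the libraries are summed in it.

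Blood cells carried most of the list at a low, even background. In the vehicle growth plate library, the 32 genes with at least 100 cartilage UMIs stood in blood cells at a median of 0.0895% of their level in cartilage cells, with the middle of the range from 0.0742% to 0.13%. In the 1NMPP1 library the median was 0.0839%. Col2a1 was at 40.79 and 30.88 CPM in blood cells, and a UMI was found in 30.2% and 26.1% of them. In neutrophil-like cells the share with a Col2a1 UMI was 28.2% and 24.2%. These values are read as background, not as expression in blood cells.

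5 genes stood at more than 10 times that median over all blood cells of the vehicle library: Runx3, Scrg1, Sox6, Sox5 and Ptch1. Runx3, known for its part in T cell development, was at 462.9 and 432.4 CPM in T or NK cell-like cells, 239.2 and 206.7 in dendritic-like and 192.1 and 131 in mast or basophil-like cells. In T or NK cell-like cells of the vehicle library this was 303% of its level in cartilage. Scrg1 was at 174.1 and 226.1 CPM in neutrophil-like cells, with a UMI in 54.2% and 61.8%, but at 3.282 and 2.833 CPM in granulocyte progenitor-like cells. Sox6, which acts in red cell maturation, was at 955.9 and 1209 CPM in erythroid-like cells and at 0.6387 and 0.7988 in neutrophil-like cells. Sox5 was at 116.5 and 84.75 CPM in B cell-like cells. Col27a1 in B cell-like cells was at 26.68 and 26.48 CPM, against 1.49 and 1.735 in neutrophil-like cells. These genes differed between blood classes of the same library, while Col2a1 was spread over them.

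**Figure D4:**
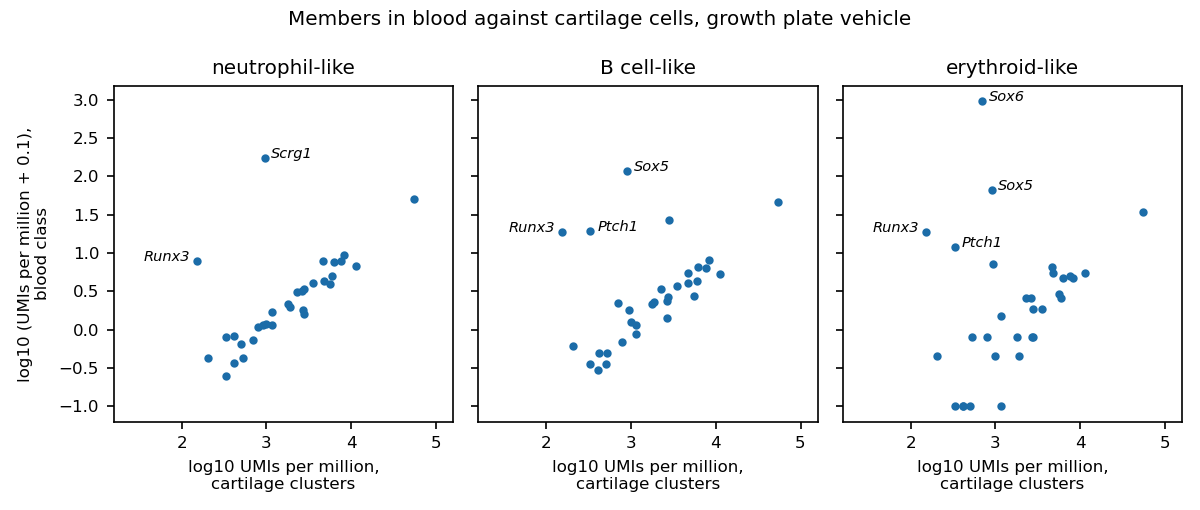
Level of each gene with at least 100 cartilage UMIs in 3 blood classes (vertical axes, log10 of CPM plus 0.1) against its level in cartilage cells (horizontal axes, log10 of CPM), growth plate vehicle library. Most genes lie along 1 rising band, and Scrg1 in neutrophil-like, Sox5 in B cell-like and Sox6 in erythroid-like cells lie well above it.

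The DRG libraries allow the same reading with and without cartilage cells. The vehicle DRG library held a cartilage cluster of 54 cells, described next, and the 1NMPP1 DRG library held none. Col2a1 had 177 UMIs in 1206 blood cells of the first, at 11.59 CPM, and 1 UMI in 1348 blood cells of the second, at 0.0911 CPM. Scrg1 in neutrophil-like cells was at 159.9 and 185.7 CPM, Sox6 in erythroid-like cells at 664.7 and 653 and Sox5 in B cell-like cells at 99.99 and 160.7. Scrg1, Sox6 and Sox5 were thus still present in blood cells of the library without cartilage cells.

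In the ganglion libraries, cells of a cartilage cluster were 54 of 2840 vehicle cells, or 1.9% (1.43% to 2.47%). In the 1NMPP1 library they were 0 of 2150 cells, which allows a share of up to 0.14% with the limit set at 3 cells, or 0.171% by the exact interval. The label of these libraries is ganglion, and 43 of the 54 cells were called male. The cells had a UMI for 11 of the 12 chondrocyte markers, although none of these was among the 10 leading genes. Col2a1 was at 33567 CPM with a UMI in 53 of 54 cells, Sox9 at 1964 in 51 and Acan at 2210 in 54. Prg4 was at 3843 CPM in 24 cells, Cilp at 322.4 in 12 and Chad at 5496 in 53. Matn1 was at 31.7 CPM, Epyc at 69.39, Ihh at 7.776 and Panx3 at 11.37, the last from 1 cell. Low Matn1, Epyc, Ihh and Panx3 beside Prg4 were also found in growth plate clusters A and D, where Chad was at 2890 and 2162 CPM in vehicle cells. Of the 10 leading genes of the DRG cartilage cluster, 9 were also among those of D and 7 among those of A, and D, like it, scored highest for chondrocyte markers. Col10a1 was at 760.9 CPM in 14 cells.

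Beside cartilage, the 35 genes took the highest share of UMIs in fibroblast-like cells of the DRG, at 0.209% in the vehicle and 0.224% in the 1NMPP1 library, in 2 clusters with different leading members. Cluster A of these (72 vehicle and 55 1NMPP1 cells) held Col9a2 at 344 and 493.6 CPM, Sox9 at 168 and 137.2, Ptch1 at 249 and 312.6 and Prelp at 264.1 and 365.9. Gli1 was at 53.28 and 120.1 CPM there, with a UMI in 26 of 72 and 32 of 55 cells. Cluster B (48 and 63 cells) held Pthlh at 176.1 and 218.7 CPM, Comp at 307.5 and 361.9 and Col11a1 at 278.6 and 418.6. Col9a2 had 0 UMIs in B in both libraries, and Pthlh was at 13.9 and 17.15 CPM in A. The hedgehog targets and the PTHrP gene were thus each highest in a different fibroblast-like cluster.

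In fibroblast-like A, 18 genes had at least 20 UMIs, with a median log2 ratio of 0.15 against 0.11 over all features. Of them 1 was at least 2-fold higher, Gli1 at 1.17 (0.60 to 1.75), against 5.52% of all features. The 5 that were at least 2-fold lower, against 5.54%, were Col11a2, Comp, Epyc, Pth1r and Mmp13. In fibroblast-like B, 12 genes had a median of 0.54 against 0.08. Of them 3 were higher, against 6.41%: Chad, Prg4 and Fmod. Col27a1 was lower, at -1.17, against 4.02%.

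Several of these differences came from few cells. Comp in A had 114 vehicle UMIs from 4 cells, Epyc 65 from 5 and Col11a2 182 from 10. Bglap, an osteoblast marker, had a UMI in 10 of 120 vehicle and 1 of 118 1NMPP1 fibroblast-like cells. Over both clusters the log2 ratio of Col11a2 was -4.34, and -0.27 (-1.93 to 1.24) without the cells that held Bglap. Pth1r went from -1.29 to -0.25 (-1.60 to 1.00) and Comp from 0.01 to 0.52. The ratios of Gli1, at 0.98 and 0.95, Fmod, at 1.59 and 1.54, and Epyc, at -4.07 and -4.16, stayed near their values. Prg4 went from 2.25 to 2.17, with 75% of its 1NMPP1 UMIs in 1 cell. The removal of the cells with Bglap was chosen after the data were seen.

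Further members marked other DRG classes. Sox5 in mural-like cells, which wrap small vessels, was at 956.5 and 686.9 CPM, with a UMI in 44 of 44 and 15 of 16 cells. Sox6 was at 271.7 and 371.5 CPM in the same cells and at 246.6 and 242.4 in satellite glia-like cells, which surround neuron cell bodies. Satellite glia-like cells also held Col11a1 at 134 and 141.4 CPM, Cnmd at 61.14 and 53.12, Col27a1 at 94.26 and 124.6 and Pthlh at 40.07 and 35.54. Col2a1 in them was at 9.896 CPM in the vehicle library and 0.7988 in the 1NMPP1 library, the same order as in blood cells of these libraries. Ihh had at most 3 UMIs in any DRG class outside cartilage, and Matn1 had 0 in each class.

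**Figure D5:**
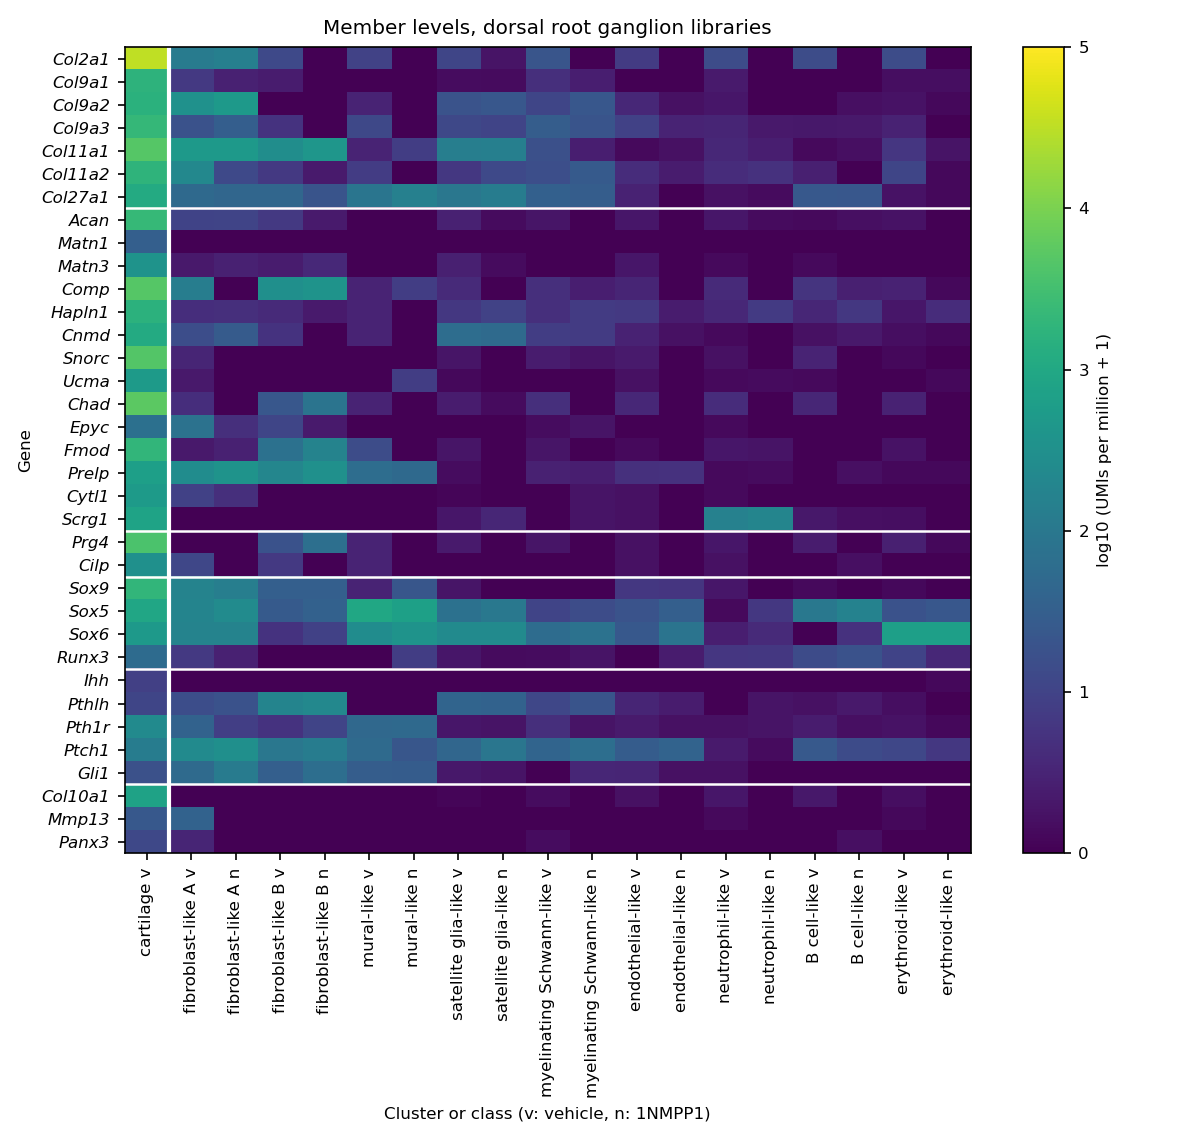
Level of each of the 35 genes (vertical axis, grouped by role) in the cartilage cluster and 9 other classes of the DRG libraries (horizontal axis, v for vehicle and n for 1NMPP1), as log10 of CPM plus 1. Outside the cartilage column, Sox5 in mural-like and Sox6 in erythroid-like cells reach the highest values of the classes shown.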

How the data were processed

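The files hold raw UMI counts of each gene in each barcode of the 4 libraries, as the authors deposited them. The file headers name Cell Ranger 7.2.0 and the submitters' processing notes name mm10, with an annotation release that the sources used here do not give. No library had been normalized. A barcode was kept from 200 detected genes upward if mitochondrial UMIs were 20% or less, and the highest Scrublet scores were then left out at 0.8% per 1000 barcodes as likely doublets.

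Vehicle and 1NMPP1 cells of a tissue were clustered jointly (2000 variable genes, 30 principal components, 20 neighbours, Leiden resolution 1), without the 35 genes. Clusters that were not blood were clustered again, on 500 variable genes, 10 components and 10 neighbours where they held under 500 cells. A cluster took the name of the class with the highest marker score if that score was at least 1 with at least 3 detected markers. This score averages, over the markers of a class, how far on the log2 scale a cluster's CPM lies above the median cluster, with 10 CPM added. Cartilage clusters needed a chondrocyte score of at least 3. The second round and this rule were settled after clusters and some values had been seen, and the genes and lists were chosen with earlier results of these data known.

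UMIs were summed per cluster and library and scaled to CPM. Levels have exact Poisson intervals, shares Clopper-Pearson intervals and ratios exact conditional intervals with 0.5 UMI added to each sum in the ratio, all at 95%. Ratios of named members are given from 20 UMIs upward over both libraries, while levels in a cluster are also given from fewer UMIs. Of each further list the 2 genes with the most UMIs and the 2 farthest from 0 with at least 50 UMIs are named, together with the only gene of a list past 2-fold. No test was run across libraries, since each group is 1 library. The ratio was tested on simulated counts that held counting error only, so variation between cells lay outside that test. Python 3.11.15, scanpy 1.11.5, scipy 1.17.1, leidenalg 0.10.2 and numpy 2.4.6 were used. Coordinates and promoters come from RefSeq tables of GRCm38.p6. The targeted receptor gene is not reported here.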

Additional observations from a re-analysis of the deposited data

Results flagged for a closer look

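The cartilage cells of the vehicle DRG library lie outside the tissue the library is labelled with. They were 54 of 2840 cells, against 0 of 2150 in the 1NMPP1 DRG library, and held Col2a1 at 33567 CPM. Under 9 ways of filtering and clustering their number was between 52 and 57 in the vehicle library and 0 in the 1NMPP1 library. Of the 54 cells, 43 were called male, 3 female and 8 neither. The source of these cells was not tested.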

How the results depend on the processing

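The log2 ratio of the chondrocyte-like share (-1.57) was -2.74 in male-called and 0.24 in female-called cells, and stayed between -2.03 and -1.26 under the other 8 alternatives. The members' median log2 ratio in chondrocyte-like cells (-0.13) was -0.27 in male-called cells, 0.13 in female-called cells, -0.06 with each cell weighed alike, -0.22 over all 6 cartilage clusters, 0.02 with no cells removed as doublets, -0.21 with doublets at the Scrublet threshold and -0.20 with the members among the clustering genes. The number of members at least 2-fold different (1) was 5 in male-called and 5 in female-called cells, 4 over all 6 clusters, 3 at a minimum of 500 genes or at most 10% mitochondrial UMIs, and 2 with cells weighed alike, thinned to 1000 UMIs, counted from 1 UMI, or at resolution 2. Apart from all 6 clusters, the share of all features past 2-fold was not counted under these alternatives. The median in stroma (0.21) was -1.27 with cells weighed alike and -1.18 when thinned. The median blood level (0.0895% of cartilage) was 0.154% when thinned. Cytl1 reversed to -0.47 over all 6 clusters, and Prg4 over all 6 clusters (-1.76) reversed to 0.01 with cells weighed alike. The cause of these shifts was not tested. Of 398 alternative values for 31 single members, 193 moved by less than the counting interval, 204 by more and 1 changed sign as a called value, and 24 passed 2-fold. The same counts were not made over all features. The use of all 6 clusters, of cells without Bglap in the DRG, of the top cell's removal, of cells weighed alike for Prg4, Cilp and Pthlh and of resolution 2 in the DRG was chosen after seeing the data. No paired analysis was possible because each group is 1 library. Few cartilage cells, 113 and 56 in all, limit every ratio.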

Other observations

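Hedgehog ligands other than Ihh were looked up after the member values had been seen. Dhh, the hedgehog ligand of Schwann cells, was at 226.9 and 352.3 CPM in satellite glia-like cells of the vehicle and 1NMPP1 DRG libraries and at 207.7 and 280.3 in myelinating Schwann-like cells. In fibroblast-like cluster A of the DRG, where Ptch1 and Gli1 were highest, Dhh was at 2.317 and 1.906 CPM. Shh was at 39.03 and 36.26 CPM in sensory neuron-like cells of 2 clusters with a median of 911 and 1068.5 UMIs. These cells summed to 3254210 UMIs in 238 vehicle and 1847528 in 44 1NMPP1 cells. Cells far deeper than the median thus carried most of the UMIs behind these levels. In growth plate cartilage cells Dhh had 0 and 3 UMIs and Shh had 0 in both libraries, so Ihh was the hedgehog ligand with the most UMIs there.

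Pth1r in the same sensory neuron-like cells was at 33.19 and 95.8 CPM, with a UMI in 16 of 238 vehicle and 8 of 44 1NMPP1 cells.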
